A study of Mus musculus with 4 samples.

Results

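The genes described here are the peroxiredoxins and a small set of selenoprotein and thioredoxin genes that handle peroxides: Prdx1 to Prdx6, Selenop, Gpx1, Gpx4 and Txn1. These 10 genes were given by symbol and had been chosen by a reading of earlier results of the same arrays, in which the differences of Selenop between the arrays were known, so their values are a description and no test was made on them. Of the 10, 8 had a probe set with exactly 1 symbol in the platform annotation, among 14860 such genes in all. Each of the 8 had 1 probe set. Prdx5 and Prdx6 had none there and were not analysed here. A gene was taken as detected where its highest value was at or above an intensity of 71.6, the median over the whole table, and 8843 genes were. Prdx1, Prdx2, Prdx3, Prdx4, Selenop and Gpx1 were among them, and Gpx4 and Txn1 were below that level on every array.

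Peroxiredoxins reduce hydrogen peroxide and organic peroxides through a reactive cysteine, and most of them are returned to the reduced state by thioredoxin. Glutathione peroxidases do similar work with glutathione as the reductant, and the main mammalian forms carry selenocysteine, the selenium analogue of cysteine, in the active site. Selenop is the secreted protein that carries selenium in plasma to cells that take it up through lipoprotein receptors. Red blood cells hold large amounts of Prdx2, and the early mesoderm that carries Flk-1 is a source of both blood and vessel cells.

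The study profiled RNA from mouse embryonic stem (ES) cells that had been differentiated for 3 days and sorted for Flk-1, the VEGF receptor encoded by Kdr. There were 4 groups with 1 Affymetrix array each. Cells of the inducible ER71 line (iER71) had been cultured without doxycycline or with it, at 1 mg/ml from day 2 to day 3 per the labels. The other arrays held Er71-/- cells and wild-type cells. ER71, encoded by Etv2, is a transcription factor of the ETS family that directs mesoderm to blood and endothelium. Both iER71 arrays have the genotype wild-type in the labels, which do not say what drives the transgene, and all lines had been kept on embryonic fibroblast feeders. RNA was amplified from inputs between 500 pg and 50 ng.

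Labels of these iER71 arrays contradict each other. The array that received doxycycline is titled as the control, and the array without it is titled as overexpressing ER71. Arrays are called here by their doxycycline label, and a difference in this pair is doxycycline minus untreated. By the titles every such difference has the opposite sign. Etv2 had an intensity of 1058 without doxycycline, 1451 with it, 473.8 in Er71-/- cells and 671.9 in wild type. Kdr, the sorted marker, lay between 811.9 and 1165 on the 4 arrays. The Etv2 difference was 0.46 on the log2 scale with doxycycline, -0.50 in Er71-/- minus wild type and 0.66 in untreated iER71 minus wild type. With 1 array a group there is no replicate spread, so differences have no replicate check and are given by size, with 2-fold, or 1 on the log2 scale, as the line for a call. Intensities of different probe sets are not compared with each other. Because RNA came from sorted cells in bulk, fewer cells of a type and less RNA per cell cannot be told apart.

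Prdx1, Prdx4 and Gpx1 were nearly level over the arrays, Selenop was highest with doxycycline and lowest in Er71-/- cells, and Prdx2 separated the iER71 line from the other cells. Prdx3 was brightest in wild type, and Gpx4 and Txn1 were too dim to place. The sequences just upstream of Selenop and Prdx2 are given here because those genes differed most, and because ER71 belongs to a family that binds DNA around the core GGAA. Each is the 250 bases before an annotated transcript start from RefSeq (build GRCm38.p6, plus strand), with capitals marking GGAA or its reverse complement. Selenop has 3 annotated starts with overlapping windows, of which the most upstream and the most downstream are printed.
Selenop, most upstream start, chr15:3270517-3270766: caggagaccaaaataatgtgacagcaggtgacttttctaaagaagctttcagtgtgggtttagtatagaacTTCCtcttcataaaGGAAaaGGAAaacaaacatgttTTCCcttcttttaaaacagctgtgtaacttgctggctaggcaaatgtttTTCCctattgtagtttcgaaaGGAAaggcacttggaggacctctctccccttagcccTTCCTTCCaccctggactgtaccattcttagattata
Selenop, most downstream start, chr15:3270727-3270976: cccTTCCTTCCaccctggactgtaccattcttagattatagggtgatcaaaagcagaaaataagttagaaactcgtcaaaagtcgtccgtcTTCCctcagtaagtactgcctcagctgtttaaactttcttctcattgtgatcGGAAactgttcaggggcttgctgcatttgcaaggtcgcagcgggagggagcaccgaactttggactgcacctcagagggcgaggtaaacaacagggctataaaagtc
Prdx2, chr8:84969372-84969621: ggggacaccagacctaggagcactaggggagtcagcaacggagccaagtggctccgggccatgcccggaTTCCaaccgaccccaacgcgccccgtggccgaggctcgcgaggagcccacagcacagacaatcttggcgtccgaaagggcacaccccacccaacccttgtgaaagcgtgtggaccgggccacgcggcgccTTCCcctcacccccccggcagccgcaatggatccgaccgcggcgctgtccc

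GGAA was found on either strand 8 times before the most upstream Selenop start, 8 times before the middle start, 4 times before the most downstream start and 2 times before Prdx2. The core is common: 93.4% of 32851 such windows in the same RefSeq table hold it, with a median of 3 matches. The longer form AGGAAG, which contains the core, occurred 2, 2 and 1 times in the Selenop windows and was absent from the Prdx2 window, and 29.5% of all windows hold it. The form CGGAAG, in 13.6% of all windows, was in none of these 4 windows. The core of the antioxidant response element, TGANNNNGC on either strand, was in 35.2% of all windows and in neither gene's windows. Of the 9 members with a window, Prdx1 and Prdx5 held it. These matches are descriptions of the letters only.

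**Figure D1:**
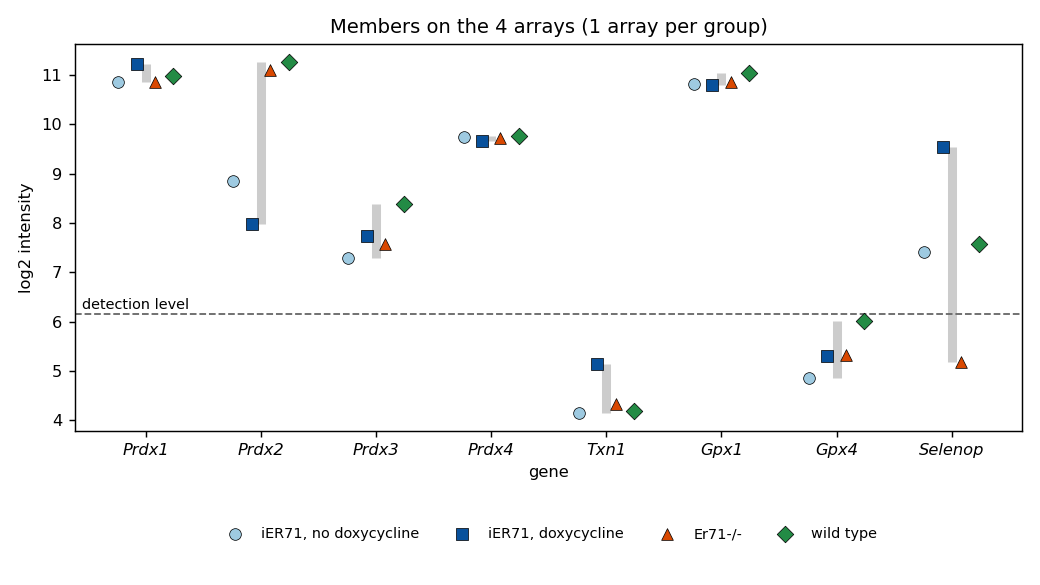
Log2 intensity (vertical axis) of the 8 measured members on each of the 4 arrays, with 1 point per array, a grey bar from the lowest to the highest value and a dashed line at the detection level. Prdx2 is low on both iER71 arrays, Selenop spans a range of 4.37 on the log2 scale, and Txn1 and Gpx4 lie under the dashed line.

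Selenop was the member with the widest range. Its intensity was 169.4 on the untreated iER71 array, 745.9 on the doxycycline array, 36.2 in Er71-/- cells and 190.3 in wild type. The untreated iER71 and wild-type arrays were close to each other, although Etv2 was 0.66 higher on the log2 scale on the former, with the doxycycline array above both and the Er71-/- array below both. The difference was 2.14 on the log2 scale with doxycycline (4.40-fold higher) and -2.40 in Er71-/- minus wild type (5.26-fold higher in wild type). Untreated iER71 minus wild type was -0.17, well short of 2-fold. These pairs allow a second reference for each side: Selenop was 3.92-fold higher with doxycycline than in wild type and 4.68-fold higher in untreated iER71 cells than in Er71-/- cells. In Er71-/- cells the intensity lay 0.99 below the detection level on the log2 scale, so the size of the folds against that array is uncertain. With an offset of 50 added to the intensities the differences were 1.86 and -1.48.

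Of the 8843 detected genes, 42 (Selenop included) differed by at least as much as Selenop in the doxycycline pair and 19 in the Er71-/- pair, in either direction. Selenop was the 1 member of 6 detected that passed 2-fold with doxycycline, where 3.64% of all detected genes passed in either direction. It was also the 1 of 6 past 2-fold in Er71-/- minus wild type, where 2.01% of all passed. Since the set was proposed with these differences known, nothing is read from the share of members. Among the 55 genes (0.622%) past 2-fold upward with doxycycline and past 2-fold downward in Er71-/- cells, Selenop was the second when ordered by the smaller of the 2 differences, behind Tek, the angiopoietin receptor.

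**Figure D2:**
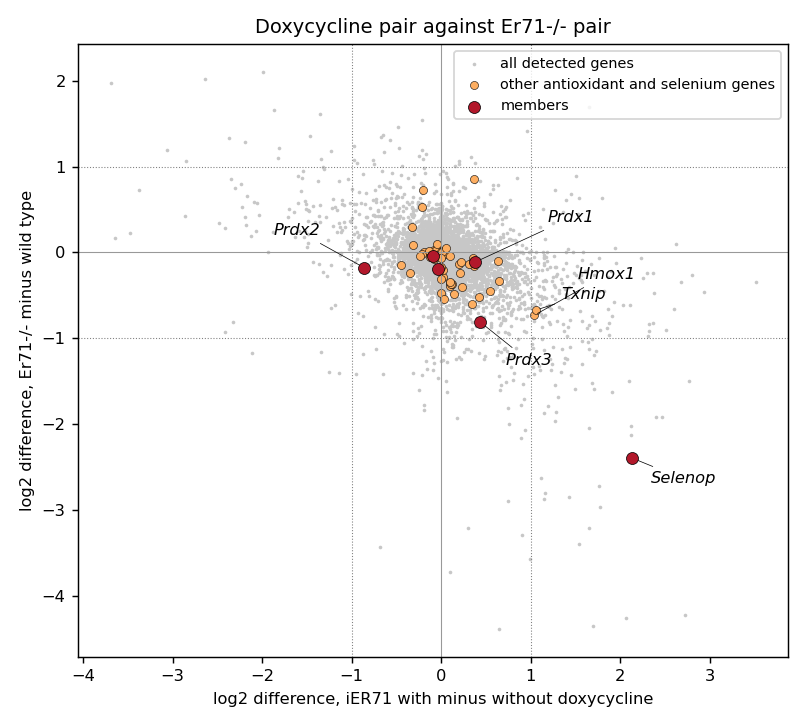
Log2 difference of each detected gene in the doxycycline pair (horizontal axis) and in Er71-/- minus wild type (vertical axis), which share no array, with dotted lines at 2-fold. Selenop lies at 2.14 and -2.40 in the lower right, while the other members and the other antioxidant and selenium genes lie inside 2-fold on the vertical axis.

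The 5 detected genes most like Selenop, by the Euclidean distance of log2 values over the 4 arrays after each gene was centred on its own mean, were Klhl4 (distance 0.31), the lymphoid GTPase gene Gimap4 (0.40), the ETS factor gene Elk3 (0.49), the tetraspanin gene Tspan18 (0.53) and BC028528 (0.57). Elk3, for example, had intensities of 318.0 untreated, 996.3 with doxycycline, 76.8 in Er71-/- cells and 316.0 in wild type. Klhl4 and Gimap4 were at or above the detection level only on the doxycycline array, so their distances rest on values below it. Tspan18 was below it in Er71-/- cells, as Selenop was. With 4 arrays such likeness rests on few points.

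Endothelial markers had the highest and lowest arrays of Selenop. Each of 12 measured markers was brightest on the doxycycline array and dimmest on the Er71-/- array. Of all detected genes, 15.6% had this order. Emcn, Cldn5 and Esam passed the detection filter only through the doxycycline array, which was thus bound to be their brightest. Markers at or above the detection level numbered 9 untreated, 12 with doxycycline, 4 in Er71-/- cells and 9 in wild type. Orders and folds that rest on values below that level are uncertain. The summed intensity of the 12 was 3323 untreated, 9529 with doxycycline, 1427 in Er71-/- cells and 3746 in wild type. Kdr, the sorted marker, is among the 12 and gave 999.4, 1165, 811.9 and 949.7 of these sums. Of the 12, 10 passed 2-fold upward in the doxycycline pair and 6 passed it downward in the Er71-/- pair, with median log2 differences of 1.57 and -1.10 against 0.00 and -0.01 over all detected genes. The vascular cadherin gene Cdh5 was at 584.5, 2451, 33.8 and 647.9 in the same array order, so it was below the detection level where Selenop was. The part of endothelial cell numbers in the Selenop values was not tested.

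Visceral endoderm and liver also make Selenop. Of 9 measured visceral endoderm markers, 5 were detected. The summed intensity of all 9 ranged from 514.4 to 769.9, highest with doxycycline. Of these markers, Afp (11.8 to 13.3) and Ttr (29.9 to 32.1) were among those below the detection level on all 4 arrays. Dab2 and Sox17 were 2.63-fold and 2.24-fold higher with doxycycline. Rbp4 (-0.39), Foxa2 (-0.07) and Amn (-0.07) were slightly lower on the log2 scale, for a median of -0.07 over the 5. Sox17 was also highest with doxycycline and lowest in Er71-/- cells, as the endothelial markers were, while Dab2 was lowest on the untreated array. The part of visceral endoderm cells in the Selenop values was not tested.

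Prdx2, a cytosolic peroxiredoxin, had another pattern. Its intensity was 460.9 in untreated iER71 cells, 253.5 with doxycycline, 2196 in Er71-/- cells and 2482 in wild type. Both iER71 arrays were far below both other arrays, and the groups of arrays did not overlap. The nearest pair across that gap, untreated iER71 and Er71-/- cells, differed 4.77-fold, and the doxycycline and wild-type arrays differed 9.79-fold. Untreated iER71 minus wild type was -2.43 on the log2 scale, and only 3 detected genes, Prdx2 included, differed by as much there. Between the 2 iER71 arrays, and between the Er71-/- and wild-type arrays, the differences were smaller: Prdx2 was 1.82-fold higher without doxycycline than with it, and 1.13-fold higher in wild type than in Er71-/- cells. Neither reached 2-fold.

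Over all 8843 detected genes, 12 (0.136%) lay at least 2-fold lower on both iER71 arrays than on both others, and 7 (0.0792%) at least 2-fold higher. This count was chosen after the values of Prdx2 were seen. Ordered by the gap between the arrays, Prdx2 was the first of the 12, with 2.25 on the log2 scale. It stayed first under each scaling, offset, filter and probe-set alternative tried. The stricter filter only removes genes, so it could not lower that place. The next were Scoc (1.89), Spin2c (1.36) and Car4 (1.20), the last a membrane carbonic anhydrase gene. Scoc was below the detection level on both iER71 arrays, at 27.0 untreated and 24.4 with doxycycline, so the size of its gap is uncertain. Hprt, of purine salvage, was also among the 12, with a gap of 1.12. Its iER71 arrays also lay far apart, at 112.4 untreated and 690.5 with doxycycline. No other member had such a gap: Gpx1 came nearest, with both iER71 arrays lower by 0.03. The labels give the iER71 line for the 2 low arrays and do not say whether the Er71-/- and wild-type cells share a parent line. Line, culture and array cannot be told apart here. Which transcripts the Prdx2 probe set reads is not given in the sources used here. A difference in RNA level and a difference in how the probes read each line cannot be told apart.

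**Figure D3:**
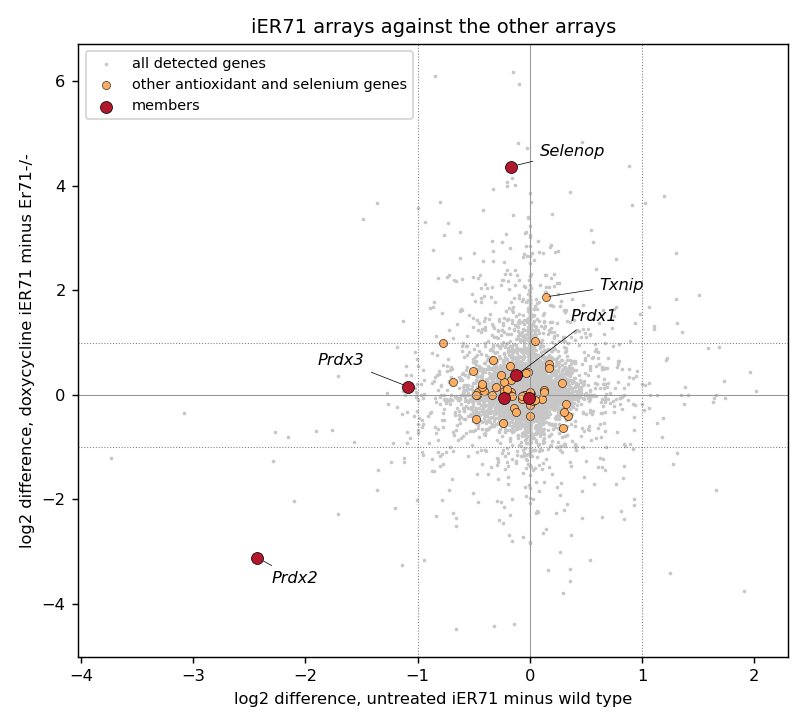
Log2 difference of each detected gene in untreated iER71 minus wild type (horizontal axis) and in doxycycline iER71 minus Er71-/- (vertical axis), which share no array, with dotted lines at 2-fold. Prdx2 stands in the lower left at -2.43 and -3.12, and Selenop differs on the vertical axis only, at -0.17 and 4.37.

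Because Prdx2 is abundant in red cells, erythroid genes were set beside it. The embryonic globin gene Hbb-y was at 49.5, 30.7, 39.0 and 419.6 in untreated iER71, doxycycline, Er71-/- and wild-type cells, so it was bright in wild type alone. The erythroid factor gene Klf1 was below the detection level on all arrays. The embryonic globin gene Hba-x was above it on all arrays, at 119.8, 89.8, 94.3 and 195.7. The blood marker gene Gata1 was at 67.3, 61.7, 66.4 and 91.7, above the detection level in wild type alone. On the Er71-/- array, Prdx2 was within 1.13-fold of wild type. There Hbb-y, Klf1 and Gata1 were below the detection level and Hba-x was above it. The part of erythroid cells in the Prdx2 values was not tested. The summed intensity of 8 measured blood markers was 768.6, 670.0, 688.5 and 1353 in the same order.

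Prdx3, the mitochondrial peroxiredoxin, was brightest in wild type. Its intensity was 156.5 untreated, 211.9 with doxycycline, 189.7 in Er71-/- cells and 332.8 in wild type. The other 3 arrays lay within 1.35-fold of each other, and all were lower than wild type. It was 2.13-fold higher in wild type than in untreated iER71 cells, past the line, and 1.75-fold higher than in Er71-/- cells, short of it. With the offset of 50 the first of these was -0.89 on the log2 scale, under 2-fold, and with the array titled control in place of the untreated one it was -0.65. In untreated iER71 minus wild type, 0.995% of all detected genes passed 2-fold in either direction, with 0.441% higher and 0.554% lower in untreated cells, and of the 6 detected members Prdx2 and Prdx3 were lower past that line. Those comparisons share the wild-type array, so the low values against it are not independent of each other.

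Prdx1, a cytosolic peroxiredoxin, had intensities of 1851 untreated, 2414 with doxycycline, 1864 in Er71-/- cells and 2013 in wild type. The doxycycline array was highest, 1.30-fold above the untreated array. Prdx4, the peroxiredoxin of the endoplasmic reticulum, was the most even member, at 863.9, 807.9, 843.9 and 866.6 in the same array order, a range of 1.07-fold. Gpx1, the cytosolic glutathione peroxidase, was at 1813, 1775, 1857 and 2127, a range of 1.20-fold with wild type highest. None of the 3 passed 2-fold between any arrays.

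Txn1, the cytosolic thioredoxin that reduces peroxiredoxins, was at 17.7, 35.2, 20.1 and 18.1, all below the detection level. Gpx4, which reduces lipid peroxides within membranes, was at 28.8, 39.5, 39.8 and 64.8, also below it. Differences at these levels, such as 0.99 for Txn1 with doxycycline and -1.17 for Gpx4 in untreated iER71 minus wild type, have no reliable size. Which transcripts these 2 probe sets read is not given in the sources used here, and low RNA and poorly reading probes cannot be told apart.

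The other genes of these systems were read from lists of selenoproteins, selenium uptake and selenocysteine synthesis, thioredoxin and peroxiredoxin recycling, glutathione, superoxide and catalase, and the targets of NRF2, the factor that drives many antioxidant genes. The lists held 82 different genes, of which 70 had a value and 56 were detected. In the doxycycline pair 2 of the 56 passed 2-fold upward and none downward, where 2.41% and 1.23% of all detected genes were. In Er71-/- minus wild type none of the 56 passed in either direction, where 0.430% of all were higher and 1.58% lower. The medians over the 56 were 0.00 and -0.07, beside 0.00 and -0.01 over all detected genes. None of the 56 separated the iER71 arrays from the other arrays by 2-fold, in either direction.

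Both calls were small. Txnip, the inhibitor that binds thioredoxin, was at 433.4 untreated, 906.3 with doxycycline, 247.3 in Er71-/- cells and 393.2 in wild type, which is 1.06 on the log2 scale with doxycycline and -0.67 in Er71-/- minus wild type. It had the same order of arrays as Selenop at the ends, highest with doxycycline and lowest in Er71-/- cells. Hmox1, the heme oxygenase gene and an NRF2 target, was at 246.4, 507.0, 254.1 and 421.9, or 1.04 with doxycycline and -0.73 in Er71-/- minus wild type. With the offset of 50 both were under 2-fold in the doxycycline pair, at 0.98 for Txnip and 0.91 for Hmox1, and with quantile normalization Hmox1 was too, at 0.97. The sestrin genes Sesn3 and Sesn1, whose products act in the response to oxidative stress, were 1.57-fold and 1.55-fold higher with doxycycline.

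Selenoprotein genes other than Selenop differed less. Of 13 detected, none passed 2-fold in the doxycycline or the Er71-/- pair, and the medians were 0.00 and -0.05. Like Selenop, 4 of the 13 (Gpx3, Selenoh, Selenon and Selenow) were brightest with doxycycline and dimmest in Er71-/- cells, an order that 15.6% of all detected genes had. The largest differences were in the Er71-/- pair and opposite in direction to that of Selenop: Selenok, of the endoplasmic reticulum, was 1.81-fold and Selenov 1.66-fold higher in Er71-/- cells. Gpx3, the secreted glutathione peroxidase of plasma, was at 172.9, 252.6, 158.7 and 217.3 in the array order used above. Selenow was at 3260, 3814, 2679 and 2904, and Selenoh at 2759, 3414, 2536 and 2783, both within 2-fold over the 4 arrays. Of the 11 listed genes that supply selenium and make selenocysteine, the 7 with a value were flat. Lrp2, Secisbp2, Secisbp2l and Trnau1ap had no value. Lrp8, the receptor gene for Selenop uptake, was at 141.4 on 3 arrays and 144.6 in wild type, and Scly, of selenocysteine breakdown, was at 98.5 on all 4. Equal values of this kind are common in the deposited table, where 39.6% of probe sets have the same value on at least 2 arrays.

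**Figure D4:**
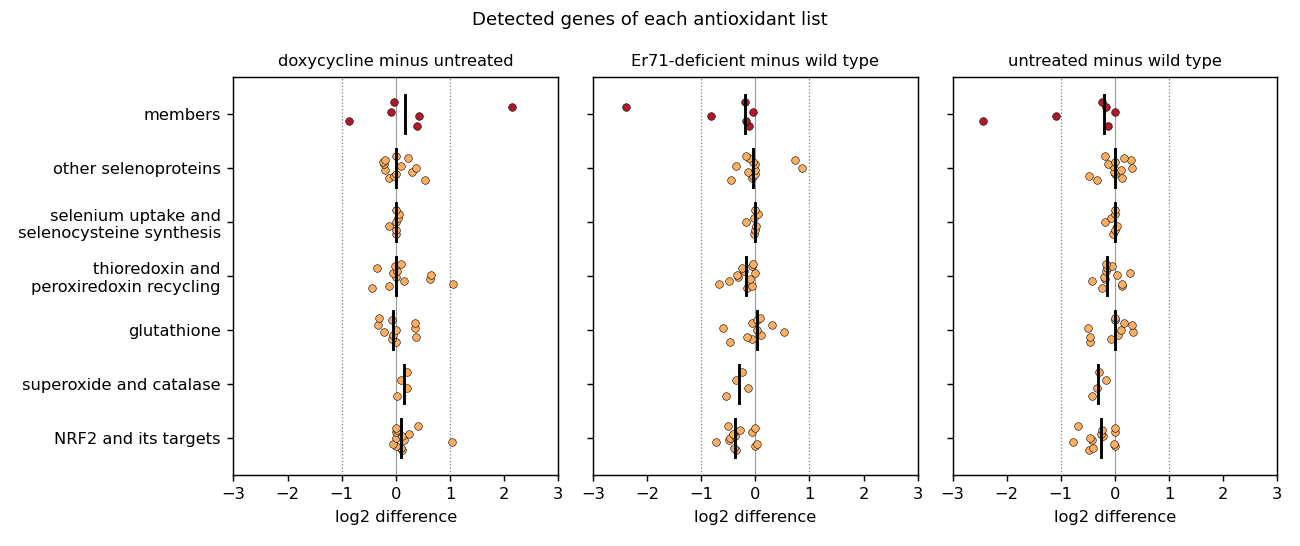
Log2 difference (horizontal axes) of the detected members and of the detected genes of 6 antioxidant lists in 3 comparisons of 1 array each, with a point per gene, a black bar at the list's median and dotted lines at 2-fold. Points past 2-fold in the members' row are Selenop in the left and middle panels and Prdx2 and Prdx3 in the right panel, and the lists' points past it are Txnip and Hmox1 in the left panel.

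The wild-type array was the brightest of the 4 for genes of several lists. It was so for 4 of 6 detected members (Prdx2, Prdx3, Prdx4 and Gpx1), 4 of 4 superoxide and catalase genes, 8 of 13 NRF2 genes and 7 of 12 thioredoxin and peroxiredoxin recycling genes, beside 26.0% of all detected genes. The counts were 4 of 11 for glutathione, 3 of 7 for selenium uptake and selenocysteine synthesis and 3 of 13 for the other selenoproteins. After quantile normalization these 7 counts were 3, 4, 7, 6, 4, 1 and 2, beside 21.0% of all. Some genes stand on several lists. Of the 56 different detected genes on the lists other than the members, 26 were brightest on the wild-type array as deposited. The mitochondrial superoxide dismutase gene Sod2 was at 217.3 in wild type and between 148.9 and 165.2 on the other arrays. Gclc, the catalytic subunit of glutathione synthesis, was at 400.6 in wild type and 289.7 on each of the others. The glutathione transferase gene Gsta4 was at 2246 in wild type and at 1477 in Er71-/- cells. The median of the NRF2 list was -0.37 in Er71-/- minus wild type, with none of 13 past 2-fold, and -0.25 in untreated iER71 minus wild type, which shares the wild-type array. Whether this belongs to the wild-type cells or to their array cannot be told apart.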

How the data were processed

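RNA of 4 sorted ES cell populations was measured with 1 array each. The deposited values are a linear intensity per probe set, already summarised and normalized by the authors; Affymetrix Expression Console, RMA and the build mm8 are named per the submitters' processing notes, with no version or order. Here log2 was taken of 23332 probe sets, as deposited. Genes were named from platform annotation with exactly 1 symbol (14996 probe sets; 1019 had several and 7317 none), using the brightest probe set. No probe coordinates were used.

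Groups follow the doxycycline and genotype labels. Differences between single arrays were called at 2-fold, with no test. The members and lists were chosen with earlier results of these data known. Named were all members, up to 4 detected genes a list with the largest difference plus any past 2-fold (not all are reported), the 5 genes nearest to Selenop, and Etv2 and Kdr. Prdx2's line gap and the genes beside it were named after their values were seen. So were Afp, Ttr, Klf1, Hba-x, Gata1, Rbp4, Foxa2, Amn, Lrp8, Scly, Selenoh and Selenow. Alternatives were median centring, quantile normalization, cyclic loess (limma 3.58.1), an offset of 50, no or a stricter filter (75th percentile), the mean over probe sets, 1.5-fold, and grouping by title. Python 3.11.15, pandas 2.3.3 and R 4.3.3 were used. Precision is limited by there being 1 array a group.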

Additional observations from a re-analysis of the deposited data

How the results depend on the processing

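No paired analysis was possible because each group has 1 array. Each member has 1 probe set, so the mean over probe sets could not change a member's difference. Having no filter or a stricter filter could not change it either, since filters only choose which genes are counted. The kept differences below include these fixed values. Of 178 recomputed member differences, 158 moved by under 0.25 on the log2 scale and kept their side of 2-fold, 19 moved further or changed side, and 1 past 2-fold turned sign: grouped by title, Selenop was -2.14 in the doxycycline pair, as Txnip was -1.06 and Hmox1 -1.04. Signs turned in 14 of the 178, by title in all 8 members of the doxycycline pair and in 3 of untreated iER71 minus wild type (Prdx1, Selenop and Txn1), and in 3 scalings for Prdx4 in the latter, at values from 0.0039 to 0.05. Genes past 2-fold numbered 322 with doxycycline, 178 in Er71-/- minus wild type, 88 in untreated iER71 minus wild type and 12 for both iER71 arrays below both others. The offset of 50 gave 169, 75, 36 and 4, and the 1.5-fold line 838, 530, 366 and 43. With no detection filter the counts for Er71-/- minus wild type and untreated iER71 minus wild type were 274 and 191, and with the stricter filter the latter was 57. Grouped by title, the latter uses the doxycycline array in place of the untreated one and had 363. The cause of these shifts was not tested beyond the construction of each alternative: a looser line or filter admits more genes, and an offset shrinks differences of dim genes. The alternatives for the gap between lines were chosen after seeing the data. Of the 3 scalings, quantile normalization moved the median of all detected genes furthest, by -0.05 on the log2 scale in the doxycycline pair, and the background level is unknown.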
